A study of Homo sapiens with 10 samples.

Results

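The transcripts described here encode lysosomal enzymes and the enzymes of sphingolipid metabolism, measured in Panc1 cells that were made to express the transcription factor KLF11 or one of its mutants. The members were a list of 51 named genes, 37 lysosomal and 14 sphingolipid, and each was read from the array's transcript cluster that carries its symbol alone. Where a gene had several such clusters, the one with the highest mean over the 10 arrays was taken. A cluster was found for 50 members (37 lysosomal and 13 sphingolipid), of 18377 genes with a cluster of their own, and SPHK2 was not analysed here.

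Lysosomes break down lipids, glycans and proteins with acid hydrolases, and their membrane holds a proton pump, ion channels and exporters that return the products to the cell. Many of these genes are under the transcription factor TFEB and its relatives of the MiT family, which bind an E-box variant called the CLEAR element. Sphingolipids are built from serine and palmitoyl-CoA by way of ceramide, which is turned into sphingomyelin or glycosphingolipids, and they are taken apart in the lysosome and, through sphingosine 1-phosphate, by a lyase in the endoplasmic reticulum.

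Panc1 is a human pancreatic ductal carcinoma line. All 5 groups were transduced with adenovirus at a multiplicity of infection of 150, and RNA was harvested after 48 h. The groups were empty vector (EV), wild type KLF11, and the mutants A347S, Δ486 and EAPP, with 2 arrays each and 10 in all. EAPP lies in the N-terminus and is described as uncoupling KLF11 from Sin3 and histone deacetylase, A347S is a substitution found in a monogenic diabetes that uncouples it from WD40 proteins, and Δ486 is a deletion beginning at residue 486 that uncouples it from HP1 and histone methyltransferase. The constructs were epitope-tagged and driven by the CMV promoter of the vector, and the labels name no removal of endogenous KLF11, so each mutant was expressed beside it. The extraction protocol gives the arrays of a group as technical duplicates of RNA pooled from biological triplicates, although the titles call them biological replicates. The p-values below therefore measure the spread between arrays, which may be technical.

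Values are log2 signals of the Affymetrix Human Gene 1.0 ST array, and a change is the difference of 2 group means. A transcript was said to rise or fall where limma gave an adjusted p under 0.05 and the change was at least 1.5-fold, equal to 0.58 on the log2 scale. Array medians ranged from 6.81 to 6.87, and the arrays of a group correlated at 0.996 to 0.997. The KLF11 cluster measured 8.37 and 7.75 with EV and between 8.68 and 8.88 on the 8 arrays of the constructs, and its differences among the 4 constructs ran from -0.14 to 0.10 with a standard error (SE) of 0.16. Of the epithelial markers EPCAM had a mean of 8.53, KRT7 and CDH1 had means of 6.42 and 4.93, and those of leukocyte, endothelial, acinar and islet cells had means from 3.59 to 6.34. Of these other markers CD14 stood at means of 5.77 with EV, 6.36 with A347S and 6.35 with Δ486. KRT8 had means of 12.68 with EV, 12.41 with KLF11, 12.26 with A347S, 12.35 with Δ486 and 12.65 with EAPP, and KRT18 of 13.17, 12.96, 12.92, 12.82 and 13.11 in the same order. KRT19 was lower with the constructs, at means of 10.83 with EV, 9.84 with KLF11, 9.32 with A347S, 9.77 with Δ486 and 10.39 with EAPP. The part of these markers in the changes below was not tested, and in bulk RNA fewer cells of a type and less RNA per cell cannot be told apart.

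With wild type KLF11, 3 of the 37 lysosomal members rose (GLA, FUCA1 and MCOLN1) and 1 fell (NPC2). Of the 13 sphingolipid members 0 rose and 2 fell (CERS5 and SGMS1), a count that was 1 without either EV array or the second KLF11 array, and also with cyclic loess, quantile scaling or no moderation of the variances. Among all 20961 clusters tested, 3.99% were called in that comparison, 2.21% rising and 1.78% falling. With A347S, 6 lysosomal members rose and 3 fell, 0 sphingolipid members rose and 3 fell, and 8.98% of all clusters were called (3.63% rising, 5.35% falling). With Δ486 the counts were 6 and 2 for the lysosomal members and 0 and 3 for the sphingolipid members, beside 5.61% of all clusters (2.38% rising, 3.23% falling). By adjusted p alone, 15 lysosomal and 5 sphingolipid members passed with KLF11 beside 17.3% of all clusters, 20 and 9 with A347S beside 28.4%, and 18 and 8 with Δ486 beside 22.4%. All 50 members had a mean of at least 6, and over the 13768 clusters with such a mean the shares called were 5.54% with KLF11, 12.7% with A347S and 7.87% with Δ486. With EAPP 0 members were called by limma, 1 cluster in the whole table was called (0.00477%), and 6 of the 50 members had an unadjusted p under 0.05.

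The median change of the lysosomal members was 0.01 with KLF11, -0.01 with A347S, 0.03 with Δ486 and -0.06 with EAPP. That of the sphingolipid members was -0.11, -0.27, -0.23 and -0.09 in the same order, and that of all clusters -0.02, 0.01, 0.02 and 0.00. The lysosomal list thus held risers and fallers around a median near 0. In total 13 members were called with at least 1 construct: 5 with KLF11, A347S and Δ486, 6 with A347S and Δ486 and not KLF11, LIPA with A347S alone and SGMS1 with KLF11 alone. Those comparisons share the EV arrays. The same overlap over all clusters is not given here, so whether these counts are unusual cannot be read from them. An effect that passed with one construct and not another was not shown to differ by that, and the differences between constructs are tested further on.

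**Figure D1:**
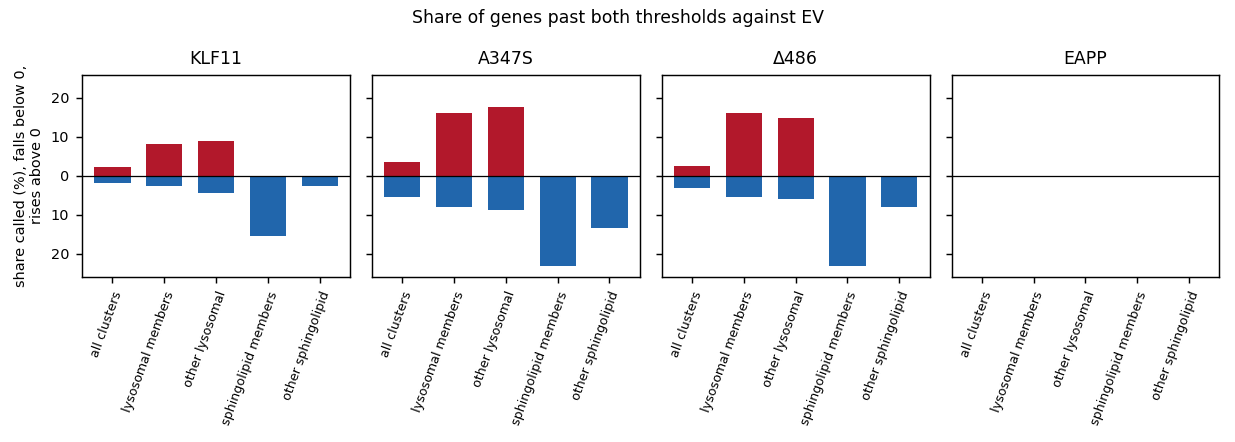
Share of all clusters tested, of the lysosomal and sphingolipid members and of the other genes of each pathway that rose (bars above 0) or fell (bars below 0) with each construct against EV, in percent. With EAPP 0 members were called, and 0 sphingolipid members rose with KLF11, A347S or Δ486.

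The promoters of 6 of these genes are shown because the genes are described below as rising or falling together, and because their letters could be searched for elements named for KLF11 and for the MiT factors. Each is the 250 bases before a RefSeq start (GRCh38.p14), printed in the direction of the gene, with capitals marking a match on either strand to CCCCGC or CCCCAC, which are given for KLF11, to the E-box CACGTG, or to the CLEAR element, a longer palindrome around the E-box that is seen as the last run of capitals in MCOLN1. They were chosen with the results in view.
MCOLN1: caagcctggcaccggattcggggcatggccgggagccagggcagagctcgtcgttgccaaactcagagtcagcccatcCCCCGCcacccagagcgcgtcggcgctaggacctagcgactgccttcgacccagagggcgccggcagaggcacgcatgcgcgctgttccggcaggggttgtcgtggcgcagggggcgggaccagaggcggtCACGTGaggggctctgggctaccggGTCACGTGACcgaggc
CTSA: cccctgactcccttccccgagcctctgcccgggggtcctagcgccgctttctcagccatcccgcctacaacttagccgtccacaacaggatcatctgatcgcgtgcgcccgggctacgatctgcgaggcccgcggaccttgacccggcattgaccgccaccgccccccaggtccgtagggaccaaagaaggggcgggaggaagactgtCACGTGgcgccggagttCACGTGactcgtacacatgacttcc
NEU1: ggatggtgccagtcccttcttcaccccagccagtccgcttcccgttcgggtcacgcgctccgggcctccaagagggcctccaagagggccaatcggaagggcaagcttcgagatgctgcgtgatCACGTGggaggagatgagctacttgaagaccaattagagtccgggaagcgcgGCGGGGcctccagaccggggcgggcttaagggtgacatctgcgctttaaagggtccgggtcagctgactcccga
NPC2: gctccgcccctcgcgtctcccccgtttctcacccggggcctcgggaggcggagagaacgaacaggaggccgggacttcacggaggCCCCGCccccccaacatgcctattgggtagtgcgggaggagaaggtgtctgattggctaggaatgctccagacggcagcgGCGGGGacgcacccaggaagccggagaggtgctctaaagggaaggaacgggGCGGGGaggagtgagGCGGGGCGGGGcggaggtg
CERS5: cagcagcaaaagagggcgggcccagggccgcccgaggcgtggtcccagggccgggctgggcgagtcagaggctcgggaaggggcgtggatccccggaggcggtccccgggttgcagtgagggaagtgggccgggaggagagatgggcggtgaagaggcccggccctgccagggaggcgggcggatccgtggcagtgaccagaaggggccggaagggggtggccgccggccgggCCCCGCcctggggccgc
SGPL1: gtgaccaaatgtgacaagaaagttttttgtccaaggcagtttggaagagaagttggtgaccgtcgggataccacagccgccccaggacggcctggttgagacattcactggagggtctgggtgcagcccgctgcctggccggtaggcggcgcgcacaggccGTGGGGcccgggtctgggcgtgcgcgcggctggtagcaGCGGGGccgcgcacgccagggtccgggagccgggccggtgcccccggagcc
The windows lie at chr19:7522374-7522623 (plus strand), chr20:45891085-45891334 (plus), chr6:31862822-31863071 (minus), chr14:74493513-74493762 (minus), chr12:50167370-50167619 (minus) and chr10:70815698-70815947 (plus). MCOLN1 held 1 CCCCGC and 2 E-boxes, 1 of them within a CLEAR element. CTSA held 2 E-boxes, and NEU1 held 1 E-box and 1 CCCCGC. The NPC2 window, which is 1 of 2 for that gene, held 5 CCCCGC, CERS5 held 1, and SGPL1 held 1 CCCCGC and 1 CCCCAC. The windows of GLA, FUCA1, GM2A and LIPA held no match to any of the 4 motifs. Windows were found for 40 of the 51 members, 64 in all. CCCCGC was in 60.9% of them and in 39.3% of all 35116 windows, CCCCAC in 29.7% against 30.3%, CACGTG in 17.2% against 6.34%, and the CLEAR element in 4.69% against 0.308%. These shares count windows, so a gene with several windows is counted more than once, and the CLEAR share rests on 3 member windows. The E-box stood in 23.9% of the 46 lysosomal windows and in 0 of the 18 sphingolipid windows. It was also found for 7 members that were called with no construct. Of these LAMP1 held 5 E-boxes, GAA held 2, both within CLEAR elements, GALNS held 2, 1 of them within a CLEAR element, and ARSB, CD63, CLN3 and CTSD held 1 in a window. These are matches of letters, and no binding data were analysed here.

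Of the 11 lysosomal lipid hydrolases and their activators, KLF11 had 1 that rose and 0 that fell, A347S had 2 of each, and Δ486 had 2 that rose and 1 that fell. Over all clusters the shares called were 3.99%, 8.98% and 5.61% in the same order. GLA measured 9.48 and 9.46 on the EV arrays, 10.46 and 10.32 on those of KLF11, 10.56 and 10.67 on those of A347S, 10.47 and 10.52 on those of Δ486, and 9.73 and 9.63 on those of EAPP. GLA encodes α-galactosidase A, which removes galactose from globotriaosylceramide and is lost in Fabry disease. Its arrays with KLF11, A347S and Δ486 all lay above every EV and EAPP array. GLA rose by 0.92 with KLF11, 1.14 with A347S and 1.02 with Δ486 (SE 0.081; adjusted p = 0.000216, 2.75e-05 and 9.29e-05), and with EAPP the change was 0.21 (adjusted p = 0.514). ASAH1 measured 8.93 and 8.91 on the EV arrays, 9.54 and 9.37 on those of KLF11, 9.55 and 9.71 on those of A347S, 9.51 and 9.56 on those of Δ486, and 9.16 and 8.96 on those of EAPP. ASAH1 is acid ceramidase, which splits ceramide into sphingosine and a fatty acid. The 6 arrays of KLF11, A347S and Δ486 again lay above all EV and EAPP arrays. ASAH1 rose by 0.71 with A347S and 0.61 with Δ486 (SE 0.097; adjusted p = 0.000527 and 0.00202), while the change of 0.53 with KLF11 passed the adjusted p (0.00532) and was under 1.5-fold. Without the second Δ486 array its change with Δ486 was 0.58, just under the fold limit.

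GM2A measured 8.39 and 8.42 on the EV arrays, 7.88 and 7.77 on those of KLF11, 7.50 and 7.31 on those of A347S, 7.62 and 7.67 on those of Δ486, and 8.36 and 8.33 on those of EAPP. GM2A is the activator protein that lifts GM2 ganglioside out of the membrane for β-hexosaminidase A. All 6 arrays of KLF11, A347S and Δ486 were below those of EV and EAPP. GM2A fell by 1.00 with A347S and 0.76 with Δ486 (SE 0.082; adjusted p = 4.73e-05 and 0.000341), and its change with KLF11 was -0.58, with an adjusted p of 0.00176, just short of 1.5-fold. LIPA measured 10.36 and 10.34 on the EV arrays, 9.94 and 9.92 on those of KLF11, 9.73 and 9.63 on those of A347S, 9.97 and 9.84 on those of Δ486, and 10.32 and 10.22 on those of EAPP. LIPA encodes lysosomal acid lipase, which hydrolyses cholesteryl esters and triglycerides taken up by endocytosis. The A347S arrays were the lowest, those of KLF11 and Δ486 lay between them and EV, and the EAPP arrays reached just below EV. LIPA fell by 0.67 with A347S (SE 0.078, adjusted p = 0.000238), and the changes with KLF11 (-0.42) and Δ486 (-0.44) passed the adjusted p only. HEXA, the α subunit of β-hexosaminidase A that GM2A serves, was higher by 0.31, 0.35 and 0.29 with KLF11, A347S and Δ486, each with an adjusted p under 0.05 and under 1.5-fold. PPT1, a palmitoyl-protein thioesterase, was higher by 0.28, 0.36 and 0.29, and GLB1, β-galactosidase, was at -0.48 with A347S and -0.42 with Δ486. PSAP, the precursor of the saposins, differed from EV by -0.03 to -0.07 with the 4 constructs, and SMPD1, acid sphingomyelinase, by -0.12 to 0.06. GALC and ARSA did not pass the adjusted p with any construct.

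Among the 12 hydrolases of glycans and glycosaminoglycans, FUCA1 and NEU1 rose. FUCA1 measured 7.50 and 7.40 on the EV arrays, 8.20 and 8.12 on those of KLF11, 8.39 and 8.55 on those of A347S, 8.27 and 8.56 on those of Δ486, and 7.79 and 7.72 on those of EAPP. FUCA1 is the α-L-fucosidase that trims fucose from glycoproteins and glycolipids. The arrays of KLF11, A347S and Δ486 were all above EAPP, and EAPP in turn was above EV. FUCA1 rose by 0.71, 1.02 and 0.96 with KLF11, A347S and Δ486 (SE 0.11; adjusted p = 0.00213, 0.000127 and 0.000355), beside 0.30 with EAPP (adjusted p = 0.459). NEU1 measured 9.87 and 9.86 on the EV arrays, 10.18 and 10.11 on those of KLF11, 10.40 and 10.51 on those of A347S, 10.47 and 10.45 on those of Δ486, and 9.92 and 9.77 on those of EAPP. NEU1 is the lysosomal sialidase, which needs the protein encoded by CTSA to be active. The A347S and Δ486 arrays were the highest, KLF11 lay below them, and the EAPP arrays were on either side of EV. NEU1 rose by 0.59 with A347S and 0.60 with Δ486 (SE 0.079; adjusted p = 0.000439 and 0.000764), and its change of 0.28 with KLF11 was under 1.5-fold. A further cluster for NEU1 gave 0.53 and 0.49 with A347S and Δ486, both under 1.5-fold, and without the second A347S array the change was 0.54. MAN2B1, a mannosidase, was at -0.41, -0.48 and -0.44 with KLF11, A347S and Δ486, and GALNS, a sulfatase, at -0.28, -0.36 and -0.33, with adjusted p under 0.05 and changes under 1.5-fold. MANBA, the β-mannosidase, was at -0.36 with A347S and with Δ486. GAA, the glycogen-degrading α-glucosidase, was at 0.30 with A347S (adjusted p = 0.0209). GUSB, IDS, IDUA, NAGLU, SGSH and ARSB did not pass the adjusted p with any construct.

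Of the 6 proteases, only CTSA was called, and it rose. CTSA measured 10.41 and 10.35 on the EV arrays, 10.91 and 10.83 on those of KLF11, 11.04 and 11.16 on those of A347S, 10.91 and 11.06 on those of Δ486, and 10.49 and 10.33 on those of EAPP. CTSA, cathepsin A, is both a carboxypeptidase and the protective protein of NEU1 and β-galactosidase. All 6 arrays of KLF11, A347S and Δ486 were above EV and EAPP, whose arrays overlapped. CTSA rose by 0.72 with A347S and 0.61 with Δ486 (SE 0.089; adjusted p = 0.000307 and 0.00131), and with KLF11 the change was 0.49 (adjusted p = 0.0051). With Δ486 it was 0.58 without the second EV array and 0.53 without the second Δ486 array, both under 1.5-fold. TPP1, a tripeptidyl peptidase, was higher by 0.42, 0.55 and 0.47 with KLF11, A347S and Δ486, and CTSL, cathepsin L, by 0.35, 0.45 and 0.38, all with adjusted p under 0.05. CTSB, cathepsin B, was at -0.48 with A347S and -0.48 with Δ486. CTSD, cathepsin D, differed from EV by -0.06 to 0.00 over the constructs, and CTSZ did not pass the adjusted p.

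The lysosomal membrane and cholesterol export genes held the member with the largest rise and the lysosomal member with the largest fall. MCOLN1 measured 7.94 and 7.88 on the EV arrays, 9.07 and 9.01 on those of KLF11, 9.23 and 9.28 on those of A347S, 9.17 and 9.23 on those of Δ486, and 7.92 and 7.79 on those of EAPP. MCOLN1 encodes TRPML1, the calcium channel of the lysosomal membrane that is lost in mucolipidosis type IV. The 6 arrays of KLF11, A347S and Δ486 stood more than 1 log2 unit above all 4 arrays of EV and EAPP, which overlapped. MCOLN1 rose by 1.13, 1.34 and 1.29 (SE 0.076; adjusted p = 0.000109, 1.24e-05 and 4.02e-05), and with EAPP the change was -0.05 (adjusted p = 0.887). NPC2 measured 9.94 and 9.90 on the EV arrays, 9.22 and 9.16 on those of KLF11, 8.92 and 8.83 on those of A347S, 8.97 and 8.98 on those of Δ486, and 9.77 and 9.60 on those of EAPP. NPC2 is the soluble protein that hands cholesterol to NPC1 for export. EV was highest, EAPP slightly lower, and the other 3 constructs lowest, with no overlap between those 3 levels. NPC2 fell by 0.73 with KLF11, 1.05 with A347S and 0.95 with Δ486 (SE 0.081; adjusted p = 0.000549, 3.63e-05 and 0.00013). NPC1 itself was at -0.19, -0.24 and -0.17, and only the change with A347S passed the adjusted p (0.0339). The abundant membrane glycoprotein LAMP2 differed from EV by -0.09 to 0.03, and LAMP1, CD63 and CLN3 did not pass the adjusted p with any construct.

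TFEB measured 6.08 and 6.24 on the EV arrays, 6.00 and 6.17 on those of KLF11, 6.03 and 6.25 on those of A347S, 6.31 and 6.06 on those of Δ486, and 6.16 and 6.26 on those of EAPP. TFEB, the transcription factor known for driving lysosomal genes, overlapped with EV under every construct, with changes from -0.07 to 0.06 (SE 0.12, adjusted p from 0.766 to 0.951). Its signal lay near the limit of 6 used to set dim clusters apart, and protein or nuclear location was not measured.

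**Figure D2:**
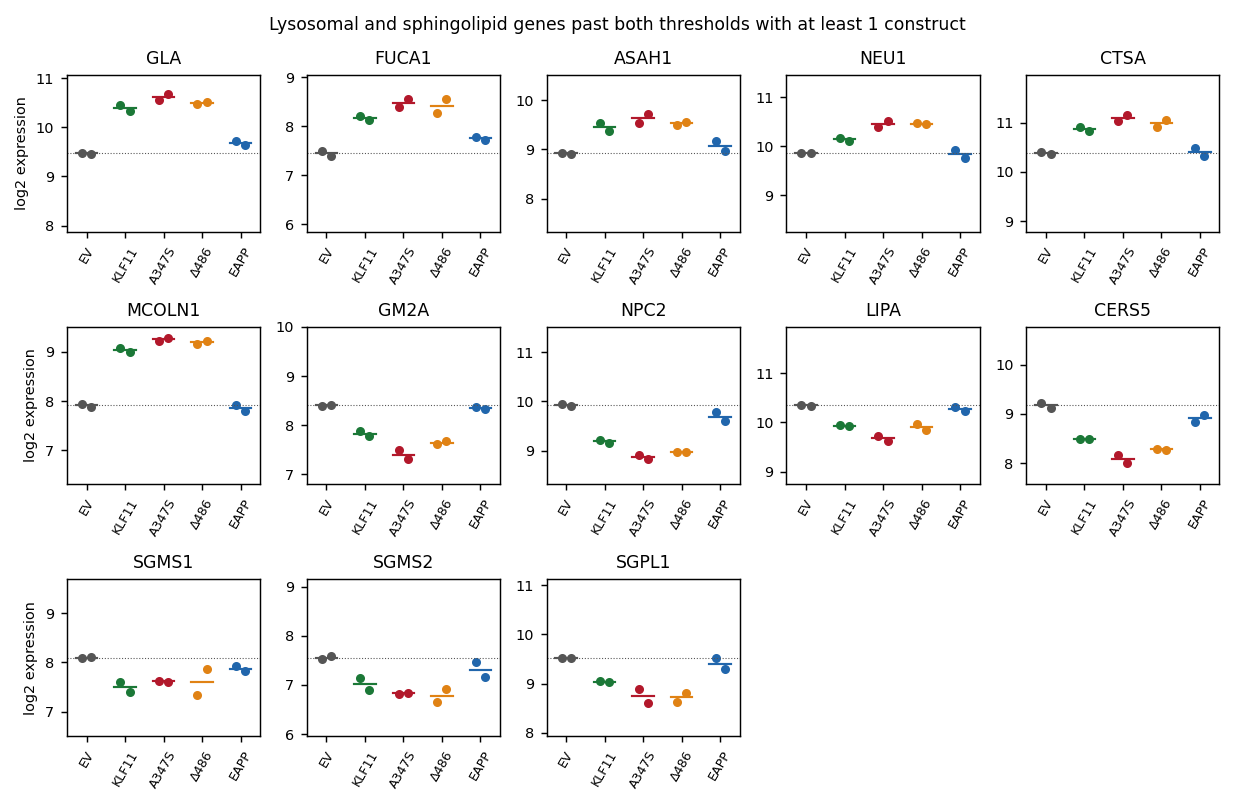
Log2 signal (vertical axis) of the 13 members called with at least 1 construct, with a point for each of the 10 arrays, a bar at each group mean and a dotted line at the EV mean. The largest distance from EV is that of MCOLN1, at 7.94 and 7.88 with EV and 9.23 and 9.28 with A347S.

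The sphingolipid members that were called fell with every construct in which they were called. CERS5 measured 9.22 and 9.13 on the EV arrays, 8.50 and 8.50 on those of KLF11, 8.16 and 8.003 on those of A347S, 8.29 and 8.27 on those of Δ486, and 8.83 and 8.98 on those of EAPP. CERS5 is a ceramide synthase with preference for palmitoyl-CoA, and so makes C16 ceramide. Its EV arrays were the highest, EAPP lay below them, and KLF11, Δ486 and A347S followed in that order with no overlap between groups. CERS5 fell by 0.68 with KLF11, 1.09 with A347S and 0.90 with Δ486 (SE 0.084; adjusted p = 0.000945, 3.63e-05 and 0.000185), and with EAPP the change was -0.27 (adjusted p = 0.399). Of the other ceramide synthases, CERS6, which also makes C16 ceramide, was higher by 0.29, 0.34 and 0.33 with KLF11, A347S and Δ486 at adjusted p under 0.05. CERS2, which makes ceramides with very long chains, was at -0.12, -0.27 and -0.22 and passed the adjusted p with A347S only. KDSR measured 7.32 and 7.31 on the EV arrays, 7.57 and 7.39 on those of KLF11, 7.78 and 7.78 on those of A347S, 7.57 and 7.67 on those of Δ486, and 7.41 and 7.25 on those of EAPP. KDSR reduces 3-ketodihydrosphingosine, the product of serine palmitoyltransferase. Both A347S arrays were the highest of the 10, and EAPP lay on either side of EV. The change was 0.47 with A347S and 0.30 with Δ486 (SE 0.088; adjusted p = 0.00315 and 0.0343), under 1.5-fold. SPTLC1 and SPTLC2, the subunits of serine palmitoyltransferase, and DEGS1, the desaturase that completes ceramide, did not pass the adjusted p with any construct.

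Transfer of a head group to ceramide was represented by SGMS1, SGMS2 and UGCG, and the changes of all 3 were below 0 with every construct. SGMS2 measured 7.53 and 7.59 on the EV arrays, 7.15 and 6.90 on those of KLF11, 6.82 and 6.83 on those of A347S, 6.65 and 6.91 on those of Δ486, and 7.47 and 7.15 on those of EAPP. SGMS2 is the sphingomyelin synthase of the plasma membrane. All 6 arrays of KLF11, A347S and Δ486 were below the lower EAPP array, and EAPP was below EV. SGMS2 fell by 0.73 with A347S and 0.78 with Δ486 (SE 0.13; adjusted p = 0.00189 and 0.0022), and its change with KLF11 was -0.53 (adjusted p = 0.0182). SGMS1 measured 8.08 and 8.12 on the EV arrays, 7.60 and 7.40 on those of KLF11, 7.61 and 7.61 on those of A347S, 7.33 and 7.87 on those of Δ486, and 7.93 and 7.82 on those of EAPP. SGMS1 is the sphingomyelin synthase of the Golgi. The EV arrays were above all others, and the Δ486 arrays were far apart. SGMS1 fell by 0.60 with KLF11 (SE 0.15, adjusted p = 0.0223) and the call was lost without either EV array or either KLF11 array, where the adjusted p lay between 0.054 and 0.131. With A347S and Δ486 the changes of SGMS1 were -0.49 and -0.50, past the adjusted p and under 1.5-fold. UGCG, glucosylceramide synthase, was at -0.11, -0.27 and -0.31 with KLF11, A347S and Δ486, and the last 2 passed the adjusted p.

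SGPL1 measured 9.53 and 9.53 on the EV arrays, 9.05 and 9.03 on those of KLF11, 8.88 and 8.60 on those of A347S, 8.63 and 8.81 on those of Δ486, and 9.52 and 9.29 on those of EAPP. SGPL1 is sphingosine 1-phosphate lyase, the enzyme of the irreversible last step of sphingolipid breakdown. The KLF11 arrays lay below EV and above all arrays of A347S and Δ486, and both EAPP arrays lay below EV, the first at 9.52 against 9.53. SGPL1 fell by 0.79 with A347S and 0.81 with Δ486 (SE 0.11; adjusted p = 0.000646 and 0.00103), and with KLF11 the change was -0.49 (adjusted p = 0.0154). SGPP1, a phosphatase of sphingosine 1-phosphate, was at -0.43 with A347S (adjusted p = 0.00451). It had the smallest adjusted p of any member with EAPP, 0.293 at a change of -0.35. SPHK1, the kinase that makes sphingosine 1-phosphate, was at 0.46 with Δ486 (adjusted p = 0.0241) and at 0.35 with A347S (adjusted p = 0.0609).

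**Figure D3:**
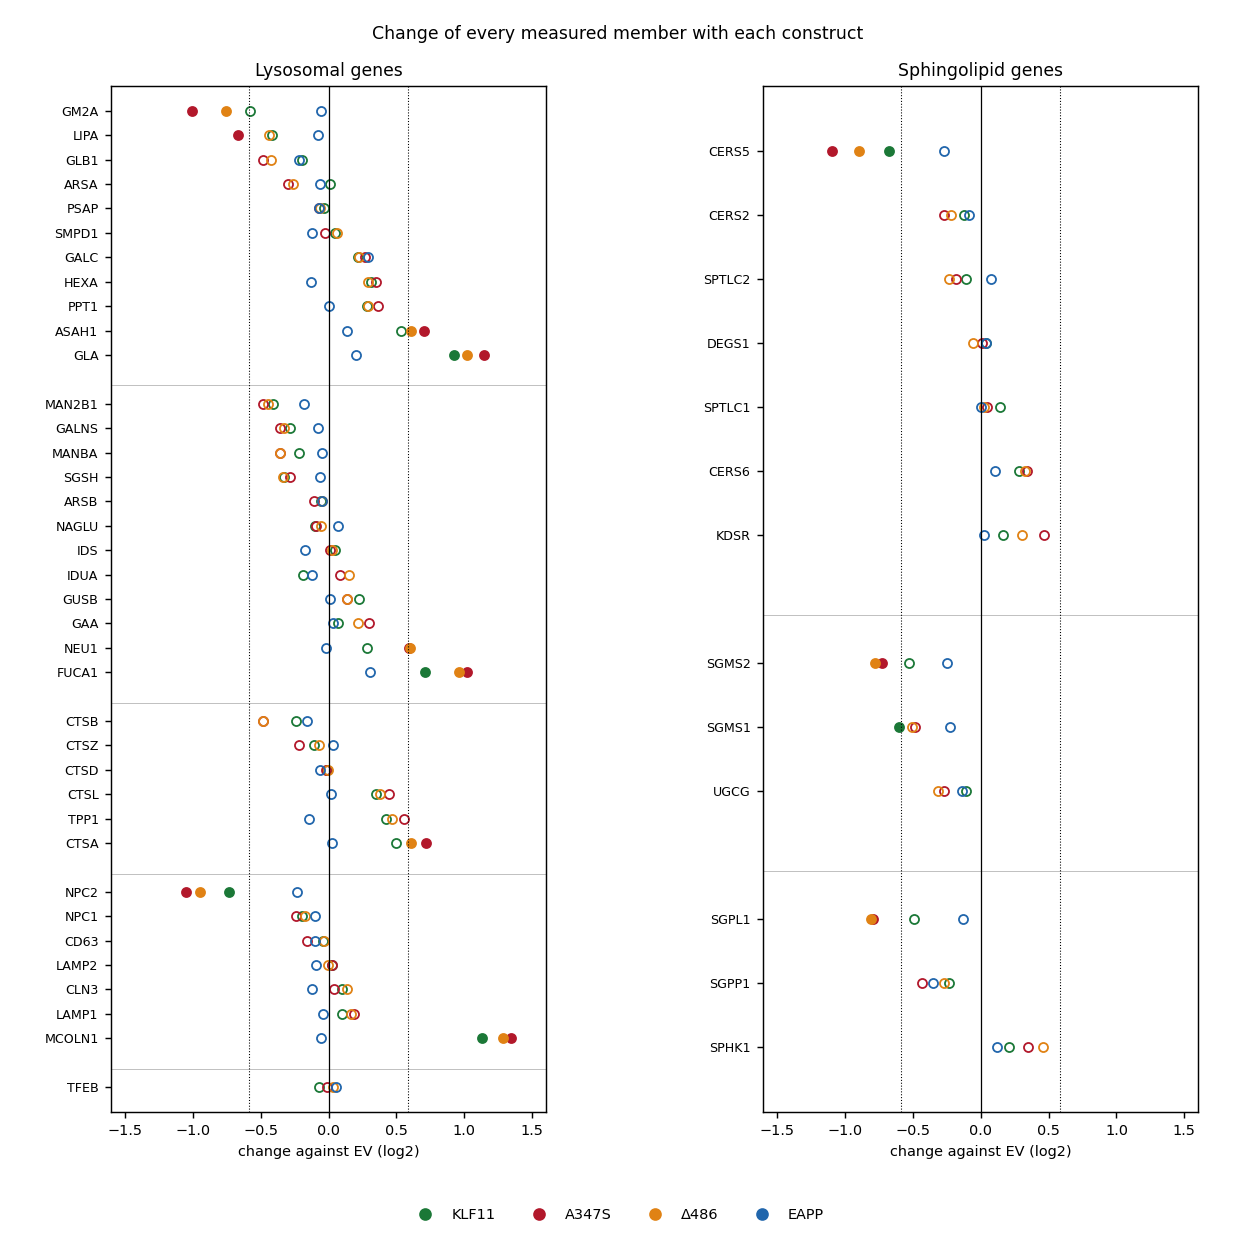
Change against EV (log2, horizontal axis) of the 50 members with each construct (colours), lysosomal and sphingolipid members apart, with filled points for members called and dotted lines at 1.5-fold. Changes with EAPP run from -0.35 to 0.30, and those with A347S from -1.09 to 1.34.

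With EAPP the members had a median absolute change of 0.09, beside 0.08 over all clusters. Their changes ran from -0.35 (SGPP1) to 0.30 (FUCA1), 32 were below 0 and 18 above, and 0 had an unadjusted p under 0.05 with a change of 1.5-fold, which 0.181% of all clusters had. The 6 members with an unadjusted p under 0.05 were GLA, GALC, FUCA1, NPC2, CERS5 and SGPP1, beside 8.73% of all clusters. Non-overlap of the 2 EAPP arrays with the 2 EV arrays was seen in 4 lysosomal members above EV and 15 below, and in 2 and 7 sphingolipid members, whereas over all clusters 18.2% lay above and 21.1% below. For KLF11 the numbers were 13 above and 12 below (lysosomal) and 5 and 7 (sphingolipid), beside 24.9% and 32.7% of all clusters. For A347S they were 14 and 14, and 3 and 8 (31.4% and 32.2%). For Δ486 they were 16 and 13, and 3 and 9 (32.1% and 29.6%).

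The mutants were then set against wild type KLF11 and each other, over 6 pairs of constructs. EAPP differed from wild type KLF11 in GLA (-0.71, 95% interval -0.90 to -0.53, adjusted p = 0.00118) and in MCOLN1 (-1.18, -1.35 to -1.01, adjusted p = 0.000179), 2 of the 50 members, beside 2.51% of all clusters (0.763% higher, 1.75% lower). Against A347S, EAPP was higher in 5 members (LIPA 0.59, GM2A 0.94, NPC2 0.81, CERS5 0.83 and SGPL1 0.66) and lower in 6 (GLA -0.94, FUCA1 -0.72, NEU1 -0.61, CTSA -0.69, TPP1 -0.70 and MCOLN1 -1.40), beside 6.01% of all clusters (2.94% higher, 3.07% lower). Against Δ486 it was higher in 4 (GM2A 0.70, NPC2 0.71, CERS5 0.63 and SGPL1 0.68) and lower in 5 (GLA -0.82, FUCA1 -0.66, NEU1 -0.62, TPP1 -0.61 and MCOLN1 -1.34), beside 3.26% of all clusters (1.36% higher, 1.9% lower). In each of those comparisons the member was called with an adjusted p under 0.05, and TPP1 was called there though its change against EV was under 1.5-fold.

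A347S and wild type KLF11 differed in 0 members by limma, as in 0 of all clusters, with 16 of the 50 members at an unadjusted p under 0.05 beside 14.4% of all clusters. The largest of those member differences, A347S minus KLF11, were -0.42 for GM2A (95% interval -0.61 to -0.24) and -0.42 for CERS5 (-0.61 to -0.23), both with an adjusted p of 0.167. NPC2 differed by -0.31 (-0.49 to -0.13), NEU1 by 0.31 (0.13 to 0.49), FUCA1 by 0.31 (0.07 to 0.54) and MCOLN1 by 0.21 (0.04 to 0.38). Δ486 and wild type KLF11 differed in 0 members and 0 clusters, with 9 members at an unadjusted p under 0.05 beside 10.5% of clusters and NEU1 at 0.32 (0.14 to 0.49, adjusted p = 0.333). A347S and Δ486 differed in 0 members and 0 clusters, with 3 members at an unadjusted p under 0.05 beside 7.43% of clusters. The interval for MCOLN1 in that pair ran from -0.11 to 0.23, which includes small differences in either direction.

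**Figure D4:**
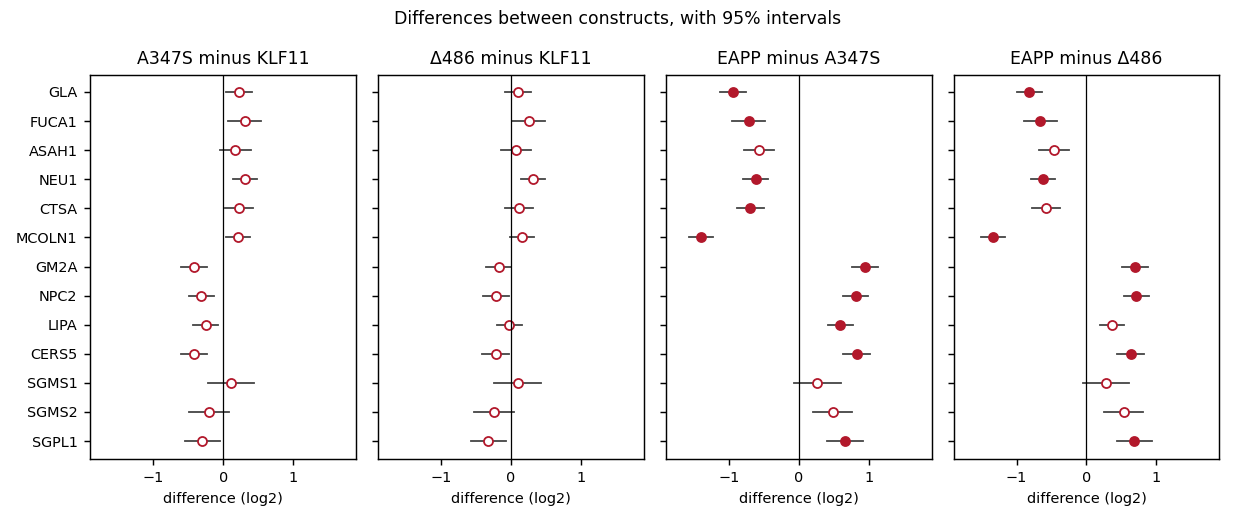
Differences (log2, horizontal axis) of A347S and Δ486 from wild type KLF11 and of EAPP from A347S and Δ486, for the 13 members called against EV, with 95% intervals from limma and filled points where called. MCOLN1 with EAPP lies at -1.40 from A347S and -1.34 from Δ486, and 0 points are filled for A347S or Δ486 against KLF11.

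Other genes of the same pathways, from lists that hold no member, were looked at in the same fit. Of 68 further lysosomal genes 6 rose and 3 fell with KLF11 (13.2% called, beside 3.99% of all clusters), 12 rose and 6 fell with A347S (26.5% beside 8.98%), and 10 rose and 4 fell with Δ486 (20.6% beside 5.61%). With EAPP 0 were called, and 7 had an unadjusted p under 0.05, beside 8.73% of all clusters. CTNS, the cystine exporter, rose by 1.16, 1.57 and 1.34 (SE 0.095), SLC38A9, an amino acid sensor of the lysosomal membrane, by 1.01, 1.66 and 1.43 (SE 0.16), and LGMN, the protease legumain, by 0.63, 1.08 and 0.92 (SE 0.089), while their changes with EAPP were 0.02, -0.28 and 0.21. LGMN with KLF11 was under 1.5-fold without the second EV array (0.57) or the first KLF11 array (0.53). MCOLN2, a relative of MCOLN1, fell by 0.68, 1.02 and 0.77 (SE 0.078), and PCYOX1, prenylcysteine oxidase, by 0.68, 1.10 and 0.84 (SE 0.087). MCOLN3, another relative, went the other way, with means of 8.35 with EV, 9.03 with KLF11, 9.17 with A347S, 9.04 with Δ486 and 8.56 with EAPP. The subunits of the proton pump had median changes of 0.36, 0.48 and 0.38 over 18 genes, beside -0.02, 0.01 and 0.02 over all clusters. Of the 18 genes 2, 6 and 5 rose, beside 2.21%, 3.63% and 2.38% of all clusters. ATP6V1H, a regulatory subunit, rose by 0.80, 0.91 and 0.76 (SE 0.11), and ATP6V1D, a subunit of the central stalk, by 0.73, 0.98 and 0.71 (SE 0.14). Without the second Δ486 array their changes with Δ486 were 0.56 and 0.47, and without the first KLF11 array ATP6V1D with KLF11 had an adjusted p of 0.058. ATP6AP1, an accessory subunit, was the 1 member of that group that fell, by 1.13, 1.25 and 0.97 (SE 0.076).

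The other MiT factors did not move alike. TFE3 fell by 0.79 with A347S (SE 0.09, adjusted p = 0.000206), and its changes with KLF11 and Δ486 were -0.49 each. MITF rose by 0.60 with A347S (SE 0.086, adjusted p = 0.000659), a change that was 0.57 with cyclic loess and 0.55 with quantile scaling and so under 1.5-fold with either, as it also was without the first EV array (0.52) or the second A347S array (0.58). MITF changed by 0.34 with KLF11 and 0.47 with Δ486, both under 1.5-fold. Its mean was 5.77 with EV and 6.07 over the arrays, near the limit of 6 used to set dim clusters apart. TFEC had a mean of 3.54 over the arrays, and its changes ran from -0.23 to 0.00. Of 37 further sphingolipid genes 0 rose with any construct. With KLF11 1 fell (2.7%, beside 3.99% of all clusters called), with A347S 5 (13.5% beside 8.98%) and with Δ486 3 (8.11% beside 5.61%). With EAPP 0 were called, and 3 had an unadjusted p under 0.05, beside 8.73% of all clusters. CERK, ceramide kinase, fell by 0.94 with A347S and 0.81 with Δ486 (SE 0.074), and SPTSSA, a small subunit of serine palmitoyltransferase, by 0.93 and 0.74 (SE 0.099). With KLF11 the change of CERK was -0.584, just short of 1.5-fold, and that of SPTSSA was -0.56. ACER3, an alkaline ceramidase, fell by 0.59, 0.75 and 0.61 with KLF11, A347S and Δ486 (SE 0.13), of which the first and last were at -0.55 and -0.57 with cyclic loess, under 1.5-fold. Both calls of ACER3 were also lost without the first EV array (-0.52 and -0.54), that with KLF11 without the first KLF11 array (-0.53) and that with Δ486 without the first Δ486 array (-0.54). PLEKHA8, which carries glucosylceramide, and ALDH3A2, which oxidises the aldehyde that SGPL1 releases, fell with A347S by 0.69 and 0.68, changes that were -0.50 without the second A347S array and -0.58 with quantile scaling. PLEKHA8 had means of 8.74 with EV, 8.19 with KLF11 and 8.23 with Δ486. ALDH3A2 changed by -0.51 with KLF11 and -0.57 with Δ486, and neither gene was called with KLF11 or Δ486.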

How the data were processed

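Total RNA of Panc1 cells was hybridised to 10 Affymetrix Human Gene 1.0 ST arrays. The authors deposited log2 expression values made by RMA in Partek 6.6, 1 value for each of 28869 transcript clusters. Their own fold changes were not used. Of these clusters 20961 carry a gene symbol in GEO's platform annotation (19229 a single one, 1732 several, 7908 none), and those with a symbol were tested. A mean per group was fitted over all 10 arrays with limma 3.58.1 (R 4.3.3), with 5 residual degrees of freedom, moderated variances and Benjamini-Hochberg adjustment over the 20961 clusters. Precision is limited by 2 arrays a group. Normalized values hide any change of total RNA per cell.

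The members and lists were chosen with earlier results of these data known. Genes given with full values are members called with any construct, the 4 members of each list with the smallest p of the moderated F test, called genes of the other lists (at most 8 a list by size of change) and the MiT factors. Promoter windows are RefSeq's. Alternatives were moderation, test, thresholds, scaling, filter, choice of cluster, replicate block and leaving out each array.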

Additional observations from a re-analysis of the deposited data

How the results depend on the processing

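Of 29 calls of members against EV, 24 were kept under each of 21 settings other than a plain t-test and the log2 limit, and 0 reversed. The 5 lost under at least 1 were ASAH1, NEU1 and CTSA with Δ486, NEU1 with A347S and SGMS1 with KLF11. Adjusted p without a fold threshold and unadjusted p with 1.5-fold are looser than the rule used here, so neither could lose a call. Leaving out an array of a group outside a comparison left the change in that comparison as it was. The choice of cluster likewise left the change as it was for the 48 members with 1 cluster. A plain t-test without moderated variances, on 2 arrays against 2, called 0 lysosomal and 0 sphingolipid members with KLF11, A347S and Δ486. It also called 0 members for EAPP against KLF11, A347S and Δ486, and 0 of all clusters in those comparisons. An absolute log2 fold change of 1.5 in place of 1.5-fold called 0 members in the same comparisons. Over all clusters that limit called 27, 62 and 32 with KLF11, A347S and Δ486 against EV. For EAPP against those constructs it called 16, 39 and 15. Adjusted p without a fold threshold called 15, 20 and 18 lysosomal and 5, 9 and 8 sphingolipid members with KLF11, A347S and Δ486, and 14, 22 and 17 members for EAPP against those constructs, beside 2254, 4899 and 3148 of all clusters. The sphingolipid count with KLF11 was 1 with the linear model without moderation, cyclic loess and quantile normalization.

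Leaving out each array gave 4 to 5, 9 to 10 and 6 to 8 lysosomal members with KLF11, A347S and Δ486, and 1 to 2, 3 and 3 to 4 sphingolipid members. For EAPP against KLF11, A347S and Δ486 the ranges were 2 to 3, 8 to 12 and 7 to 10, and for the remaining comparisons 0. A group left with 1 array was assumed to vary like the others. With the replicate number as a block the counts were 4, 9 and 8 lysosomal and 2, 3 and 3 sphingolipid members against EV, and 2, 11 and 9 for EAPP against the other constructs, equal to those without it. The numbers did not pair the arrays: the correlations of the replicate differences ran from -0.35 to 0.15 over 10 pairs of groups, 1 of them above 0.1. Over all clusters, limma with a variance trend and robust moderation called 21 with EAPP against EV, 23 between A347S and KLF11 and 6 between Δ486 and KLF11, where the settings of the report called 1, 0 and 0. With unadjusted p and 1.5-fold these counts were 38, 38 and 46, with dim clusters left out 3, 8 and 0, and without moderation 0, 0 and 0. Between Δ486 and KLF11, cyclic loess called 1 and quantile normalization 2, and between A347S and KLF11 the replicate block called 1.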
